A study of Homo sapiens with 6 samples.

Results

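The genes described here are 35 human genes of cholesterol synthesis, uptake, storage and efflux, listed by symbol. The list was drawn up with earlier results of these data known. All 35 were found among the 57500 genes in the count tables, and 33 of them were abundant enough to be tested. They comprise 7 enzymes of the mevalonate pathway, 12 enzymes of squalene and sterol synthesis, 5 genes of the sterol-sensing transcription factors and their control, 6 genes of uptake, transport and storage, and 5 genes of the oxysterol receptors and efflux. They do not cover every step of the pathway.

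RNA was sequenced from HepG2, an established cell line from a human liver tumour, with a wild-type genotype in its labels. Cells received vehicle (n = 3 libraries) or 10 mM glycine (n = 3 libraries) and were collected after 24 h. The culture medium of both groups already contained glycine, so vehicle cells were not glycine free. The study asked whether mammalian cells make cyanide from glycine and what this does to them, and the libraries address how transcript levels differ once glycine is added. According to its methods, replicates were independent experiments done on separate days. For its cell-based assays, its reporting summary states that each day's run held both control and treated samples.

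Cholesterol is built from acetyl-CoA through mevalonate, the isoprenoid farnesyl diphosphate, squalene and lanosterol. When the endoplasmic reticulum is low in sterol, the escort protein SCAP carries the membrane-bound precursors of SREBP-1 and SREBP-2 to the Golgi for cleavage, and the freed factors switch on synthesis and uptake genes. INSIG proteins hold SCAP back when sterol is plentiful. Excess cholesterol is esterified, exported or converted to oxysterols, which activate the LXR receptors and their efflux transporters.

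The libraries held between 31795489 and 58815986 counts, and the mitochondrial genome gave 1.94% to 2.82% of them. Levels are given as CPM, the usual depth-scaled unit for counts, computed on library sizes with TMM scaling (trimmed mean of M values). All 12 hepatocyte markers were detected, with a summed level of 20304 to 26686 CPM in vehicle and 19539 to 22673 CPM with glycine. Of these, 1 fell, TTR, which encodes the thyroxine carrier transthyretin (edgeR adjusted p = 0.00921). ALB, which encodes albumin, was at 9038, 5366 and 8660 CPM in vehicle replicates 1 to 3 and at 4682, 5344 and 6405 CPM with glycine. Leukocyte markers summed to 3.41 to 3.97 CPM in vehicle and 6.64 to 7.38 CPM with glycine. Of those 5 markers, CD14 and CD79A were tested and both were higher, CD3E had no count and PTPRC and CSF1R stayed under 0.1 CPM. Fibroblast markers summed to 27.1 to 31.0 CPM in vehicle and 21.3 to 22.0 CPM with glycine, mostly PDGFRB, and DCN was at or near 0. Of these 5 markers PDGFRB fell from a mean of 26.9 to 17.0 CPM, while COL1A1 rose from 2.15 to 4.38 CPM (edgeR adjusted p = 0.000137 and 0.000585). Endothelial markers summed to 5.45 to 5.76 CPM against 4.60 to 5.26 CPM, with KDR at or near 0. Of these 4 markers VWF was low and fell from a mean of 0.584 to 0.258 CPM (edgeR adjusted p = 0.0239). The part of these markers in the results was not tested. All libraries came from the HepG2 line, so these marker levels are not counts of cells of other types. In bulk RNA, fewer cells with a transcript and less of it per cell cannot be told apart.

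Glycine was accompanied by lower transcript levels of several cholesterol genes and a higher level of SREBF1. Of the 33 tested genes, 8 fell and 1 rose past an adjusted p of 0.05 (edgeR quasi-likelihood test, Benjamini-Hochberg over 15492 genes), while 24 did not pass. Across all tested genes 6.54% were called lower and 6.71% higher. INSIG2 fell most, followed by CYP51A1, SOAT2, LSS, ACAT2, MSMO1, TM7SF2 and SC5D. The fitted change was below 0 for 27 of the 33 genes, or 81.8%, against 49.2% of all tested genes. Their median log2 change was -0.16, and that of all tested genes was 0.00. In 16 of the 33 all glycine libraries lay below all vehicle libraries, a pattern held by 14.4% of all tested genes. In 1 gene they lay above, against 17.2% of all tested genes. As the list was drawn up with earlier results known, these shares are a description only. The called changes were small, and that of INSIG2 was the only one beyond 0.5 on the log2 scale.

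**Figure D1:**
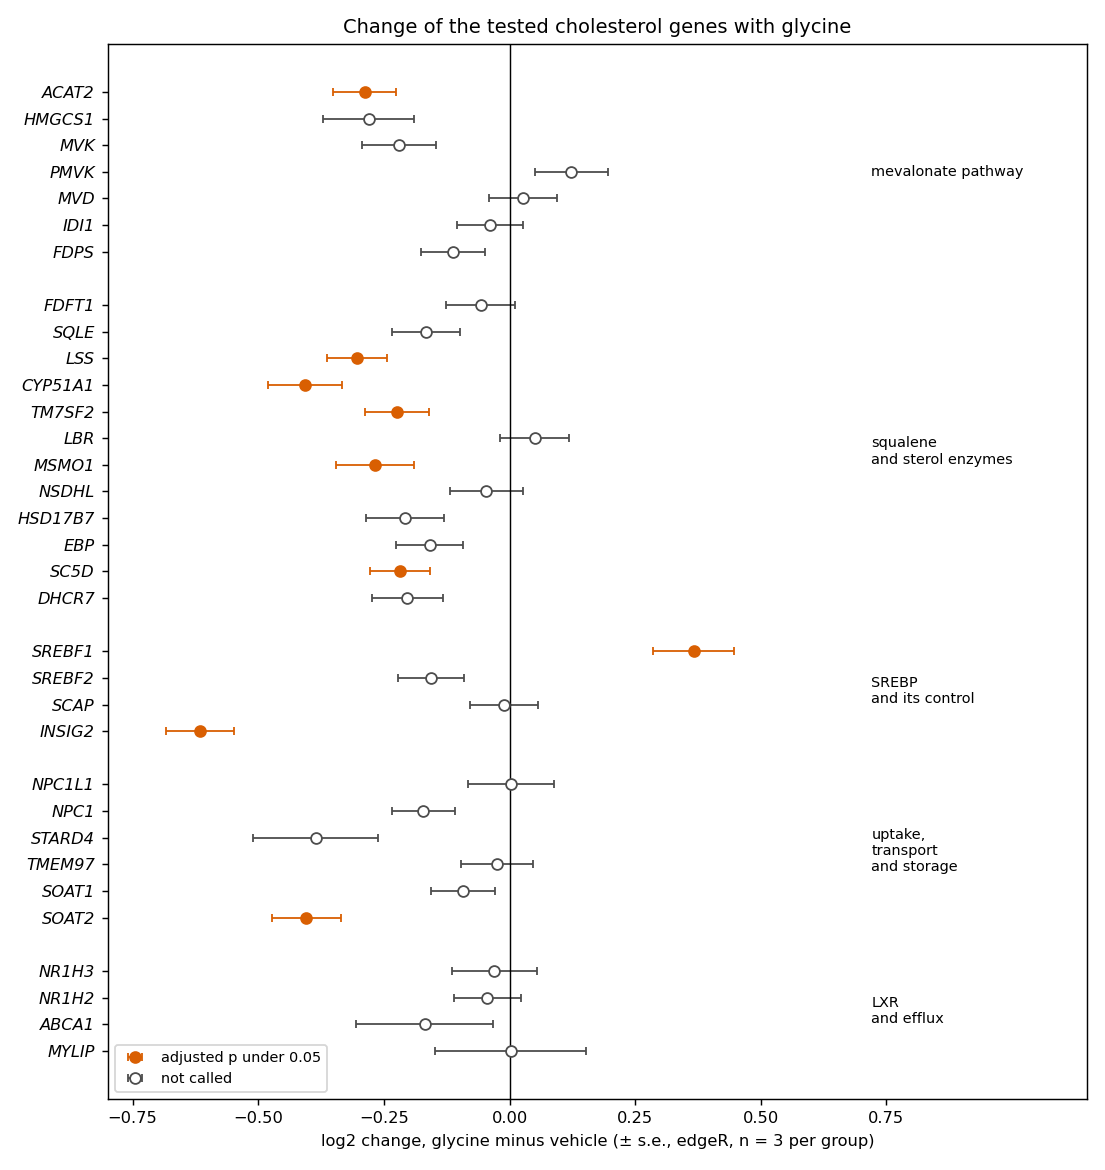
Each point is the fitted log2 change, glycine minus vehicle, of 1 of the 33 tested cholesterol genes, grouped by role, with bars of ± 1 standard error (edgeR, n = 3 libraries per group); filled points passed an adjusted p of 0.05. Most points lie left of 0, INSIG2 lies farthest left at -0.62, and SREBF1 at 0.37 is the one filled point to the right.

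Sequences upstream of 4 of the called genes are shown because SREBP-2 target promoters typically pair a sterol regulatory element with sites for the factor NF-Y. LSS and MSMO1 are 2 of the 6 enzymes that fell, INSIG2 had the largest fall, and SREBF1 had the rise. Each is the RefSeq sequence on GRCh38.p14, 5′ to 3′ on the strand of the gene, cut where the first annotated exon begins, with matches to the NF-Y box (CCAAT, or ATTGG on the other strand) in capitals.
INSIG2 (chr2:118088221-118088451, plus strand): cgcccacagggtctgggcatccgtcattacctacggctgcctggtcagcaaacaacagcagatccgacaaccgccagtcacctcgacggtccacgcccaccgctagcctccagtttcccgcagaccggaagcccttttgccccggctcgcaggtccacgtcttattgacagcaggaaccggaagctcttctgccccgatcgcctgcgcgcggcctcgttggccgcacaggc
LSS (chr21:46228825-46229024, minus strand): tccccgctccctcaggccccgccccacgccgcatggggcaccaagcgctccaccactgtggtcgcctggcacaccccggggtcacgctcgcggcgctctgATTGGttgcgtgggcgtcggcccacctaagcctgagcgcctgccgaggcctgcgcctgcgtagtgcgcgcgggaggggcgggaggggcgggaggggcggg
MSMO1 (chr4:165327419-165327622, plus strand): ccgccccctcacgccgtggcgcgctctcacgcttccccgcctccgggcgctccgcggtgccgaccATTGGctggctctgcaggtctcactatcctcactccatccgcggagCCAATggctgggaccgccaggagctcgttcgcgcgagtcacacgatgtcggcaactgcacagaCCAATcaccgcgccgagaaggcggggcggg
SREBF1 (chr17:17837003-17837236, minus strand): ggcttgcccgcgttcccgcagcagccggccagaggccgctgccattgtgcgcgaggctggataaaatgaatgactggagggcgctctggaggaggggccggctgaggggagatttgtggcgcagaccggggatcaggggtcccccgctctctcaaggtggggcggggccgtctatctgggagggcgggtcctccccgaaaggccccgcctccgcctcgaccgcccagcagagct

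The stretch before MSMO1 held 3 NF-Y matches and that before LSS held 1, while those before INSIG2 and SREBF1 held 0. The window of CYP51A1, the enzyme with the largest fall, held no NF-Y match either. Over the full windows, 250 bases before to 50 after each RefSeq start site, 30 of the 35 genes had an entry. The NF-Y letters were found on either strand for 21 of these 30 genes, and in 59.0% of their windows against 34.6% of 35116 windows of all genes. The Sp1 box GGGCGG was found for 27 genes, in 84.6% of windows against 45.0%. The E-box CACGTG was found for 5 genes, in 15.4% of windows against 7.26%. The sterol regulatory element core TCACNCCAC was found for 1 gene, SREBF2, in 2.56% of windows against 1.13%. Only exact matches were counted, so a window without one may still hold a variant of the element. Neighbouring matches of different motifs may share bases, and a match describes letters only.

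The 7 enzymes from acetyl-CoA units to farnesyl diphosphate had a median log2 change of -0.11, and 1 of them was called lower. That is 14.3% of the 7, beside 6.54% of all tested genes. ACAT2, the cytosolic thiolase that joins acetyl-CoA units, was at 225, 233 and 247 CPM in vehicle replicates 1 to 3 and at 197, 192 and 188 CPM with glycine. The groups did not overlap, and all glycine libraries were below the lowest vehicle library. ACAT2 fell by 18.1%, a log2 change of -0.29 ± 0.06 (edgeR adjusted p = 0.00879). Exons of other genes cover 52.3% of its exon length, most of it from SOD2 on the opposite strand. How reads in shared stretches were counted is not given, so its count is less certain.

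HMGCS1, the synthase of the next step, was at 190.2, 145 and 169 CPM in vehicle and at 139.6, 128 and 148 CPM with glycine. The groups overlapped at vehicle replicate 2, the lowest of its group, and the change of -0.28 ± 0.09 did not pass (edgeR adjusted p = 0.0590). Without that library the change was -0.37 (adjusted p = 0.00911). It was -0.19 (0.202) when vehicle replicate 1 was left out, and the fits that dropped any other library did not pass either. Mevalonate kinase, MVK, was at 68.8, 70.6 and 82.3 CPM in vehicle and 65.0, 63.1 and 62.2 CPM with glycine, with no overlap and a change of -0.22 ± 0.07 (edgeR adjusted p = 0.0673). Without vehicle replicate 1 the change of MVK was -0.28 (adjusted p = 0.0469), and it was -0.14 (0.215) when vehicle replicate 3 was left out. FDPS, which makes farnesyl diphosphate, also had no overlap, but its change of -0.11 did not pass (edgeR adjusted p = 0.283). The remaining enzymes had overlapping groups. Their log2 changes were 0.12 for PMVK, the second kinase of the path, 0.03 for the decarboxylase MVD and -0.04 for the isomerase IDI1, and none of these passed. FDPS has pseudogene copies with which its reads may be shared.

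The 12 enzymes from squalene to cholesterol held 5 of the falls, or 41.7% of the 12 beside 6.54% of all tested genes. Their median log2 change was -0.21, with 11 of 12 changes below 0. In 9 of the 12, the glycine libraries lay below every vehicle library, a pattern held by 14.4% of all tested genes. FDFT1, which joins farnesyl units into squalene, changed by -0.06 ± 0.07 and did not pass. SQLE, the epoxidase after it, was at 221, 199 and 220.0 CPM in vehicle and at 198, 179 and 194 CPM with glycine. Each glycine library was below the lowest vehicle library, by a narrow margin, and the change of -0.17 ± 0.07 did not pass (edgeR adjusted p = 0.128). LSS closes the epoxide into lanosterol, the first sterol. It was at 255, 247 and 249 CPM in vehicle and at 208, 195 and 206 CPM with glycine. The vehicle libraries agreed closely, with a coefficient of variation of 1.6%, and the groups were well apart. LSS fell by 19.0%, a log2 change of -0.30 ± 0.06 (edgeR adjusted p = 0.00530).

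CYP51A1, the lanosterol demethylase, was at 54.3, 50.3 and 45.5 CPM in vehicle and at 37.0, 38.7 and 37.3 CPM with glycine. Its vehicle libraries were spread but all lay above the glycine libraries, which were tightly grouped. It fell by 24.6%, and its log2 change of -0.41 ± 0.07 was the largest among the 19 enzymes (edgeR adjusted p = 0.00268). Other genes cover 82.2% of its exon length, chiefly LRRD1 on the same strand, and CYP51A1 has pseudogene copies, so its count is less certain.

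Reduction at carbon 14 of the sterol ring is carried out by TM7SF2 and by the nuclear envelope protein LBR. TM7SF2 was at 126, 136 and 139 CPM in vehicle and at 116, 117 and 109.9 CPM with glycine. The groups did not overlap and TM7SF2 fell by 0.22 ± 0.06 (edgeR adjusted p = 0.0348). LBR changed by 0.05 ± 0.07, with overlapping groups at 92.4 to 105 CPM in vehicle and 95.5 to 105 CPM with glycine. The difference between these 2 changes was not tested. The TM7SF2 call was kept without vehicle replicate 1. It was lost with adjusted p values of 0.0723 without vehicle replicate 2, 0.0893 without vehicle replicate 3, 0.0871 without glycine replicate 1, 0.0634 without glycine replicate 2 and 0.122 without glycine replicate 3.

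MSMO1, which oxidizes the methyl groups at carbon 4, was at 145, 119.6 and 143 CPM in vehicle and at 113, 108 and 118 CPM with glycine. Vehicle replicate 2 was only just above the highest glycine library, while the other vehicle libraries were clearly higher. MSMO1 fell by 0.27 ± 0.08 (edgeR adjusted p = 0.0379). The call was lost without vehicle replicate 1 (0.125), vehicle replicate 3 (0.0924), glycine replicate 1 (0.0887), glycine replicate 2 (0.127) or glycine replicate 3 (0.0563). Of the other carbon 4 enzymes, the dehydrogenase NSDHL changed by -0.05 with overlapping groups. The reductase HSD17B7 changed by -0.21 ± 0.08 without overlap (edgeR adjusted p = 0.0965). Without vehicle replicate 2 the adjusted p of HSD17B7 was 0.0385, and the 5 fits that dropped another library gave up to 0.245 and did not pass. HSD17B7 has pseudogene copies.

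Of the last enzymes before cholesterol, the isomerase EBP changed by -0.16 ± 0.07 and had no overlap, but did not pass. The desaturase SC5D was at 83.8, 89.2 and 83.8 CPM in vehicle and at 74.9, 72.9 and 73.1 CPM with glycine. All glycine libraries were below all vehicle libraries, and SC5D fell by 0.22 ± 0.06 (edgeR adjusted p = 0.0297). That call was lost without vehicle replicate 2 (0.0810), glycine replicate 1 (0.0766), glycine replicate 2 (0.0907) or glycine replicate 3 (0.0867). DHCR7, which reduces 7-dehydrocholesterol, was at 395, 439.6 and 441 CPM in vehicle and at 387, 368 and 352 CPM with glycine. The groups touched closely without overlapping, and the change of -0.20 ± 0.07 did not pass (edgeR adjusted p = 0.0768). Without vehicle replicate 1, the lowest of the vehicle group, its adjusted p was 0.0456, and the 5 fits that dropped another library gave up to 0.215 and did not pass.

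**Figure D2:**
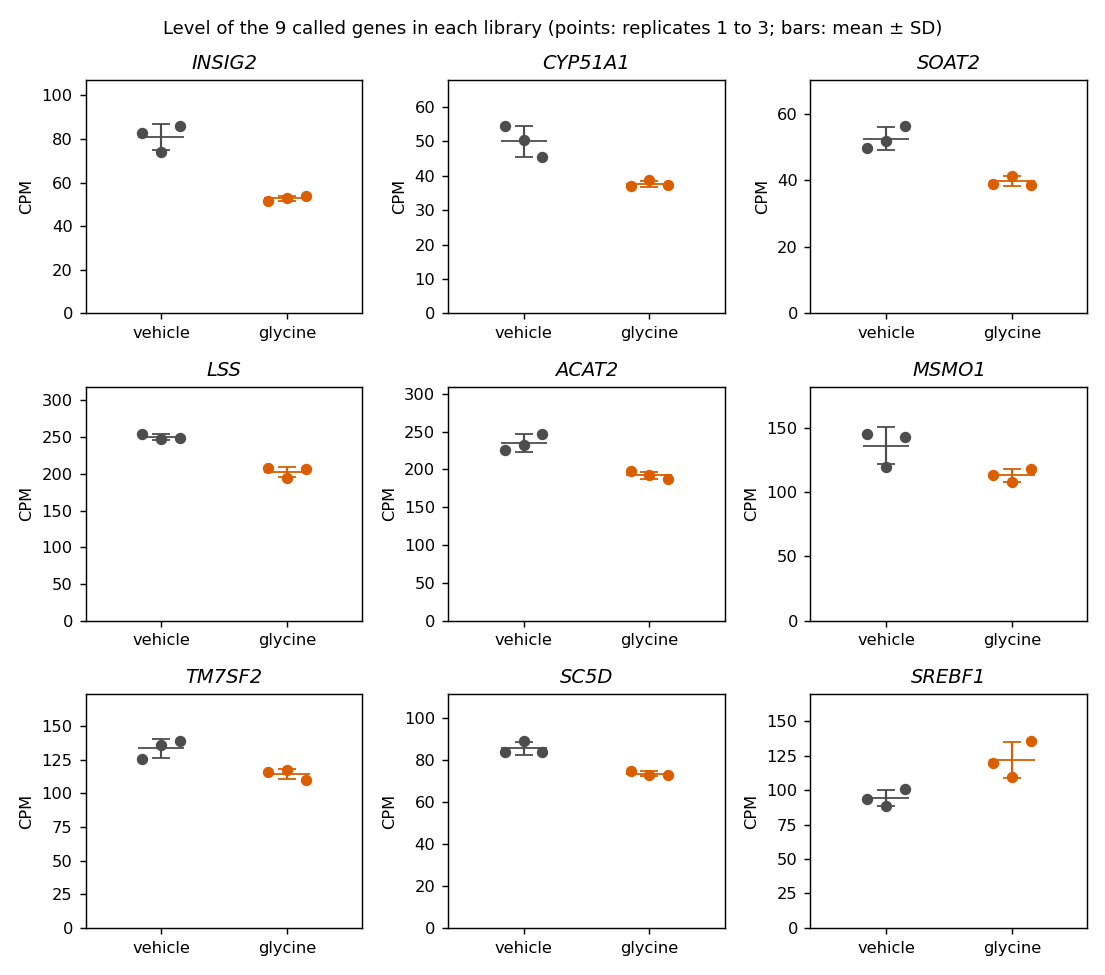
Points are the CPM of each library and bars the group mean ± SD (n = 3) for the 9 called genes, on linear axes that start at 0. In every panel the glycine points lie on one side of the vehicle points, below them in 8 panels and above them for SREBF1.

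Summed over the 19 enzymes, the level was 2952, 2903 and 3108 CPM in vehicle and 2705, 2666 and 2647 CPM with glycine. Every glycine library was below every vehicle library. The means were 2988 ± 107 and 2673 ± 29.6 CPM (SD, n = 3), a difference of -10.5%. It was -9.38% for the mevalonate enzymes and -11.1% for the squalene and sterol enzymes. Of the 19 enzymes 6 fell, or 31.6%, 0 rose and 12 had no overlap with glycine below. Across all tested genes 6.54% were called lower and 14.4% had no overlap with glycine below. Vehicle replicate 3 had the highest vehicle value for 12 of the 19 enzymes, while the lowest was vehicle replicate 1 for 9, vehicle replicate 2 for 8 and vehicle replicate 3 for 2. Without vehicle replicate 3 the number of enzymes called lower was 4 instead of 6, and it was 3 without any 1 of the glycine libraries.

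**Figure D3:**
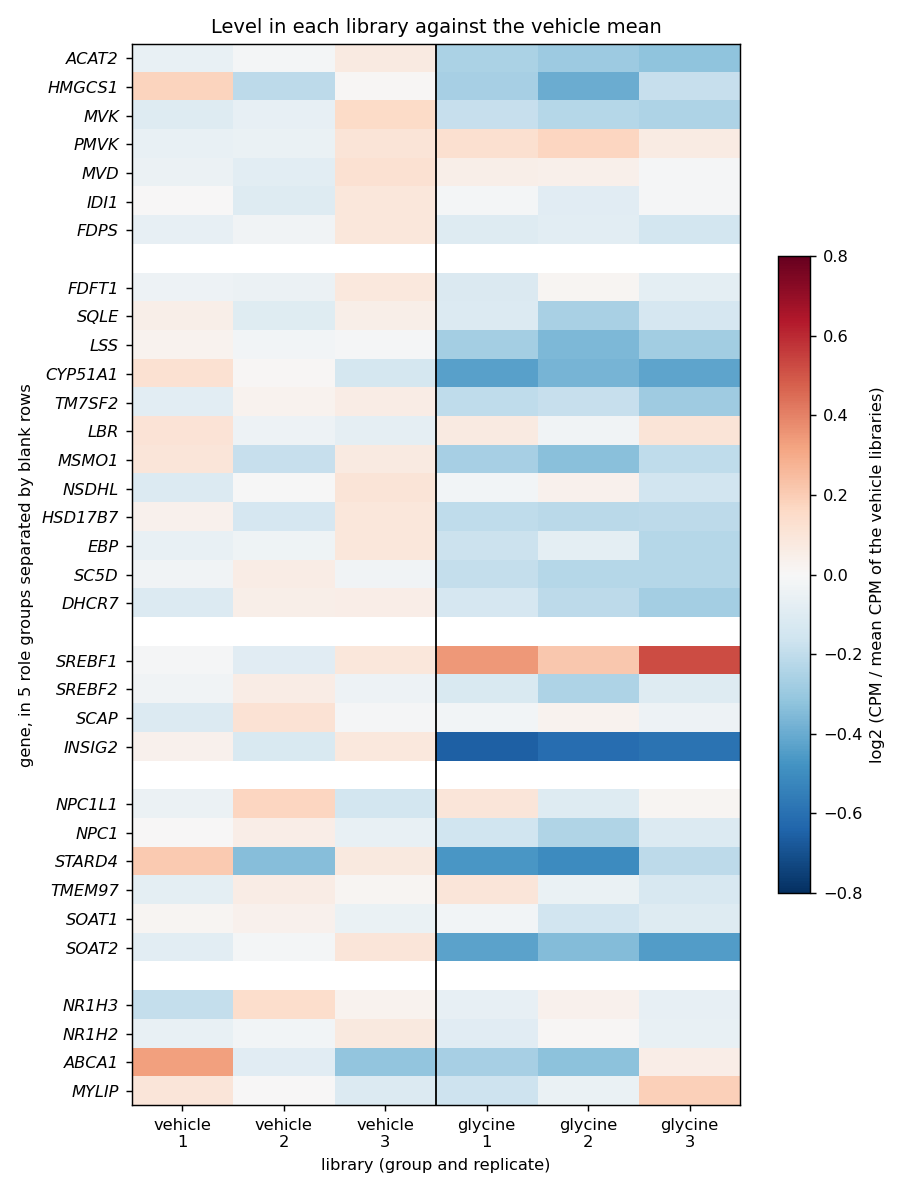
Each cell is the log2 ratio of the CPM of 1 library to the mean CPM of the vehicle libraries, for the 33 tested genes in rows by role and the 6 libraries in columns. Blue cells (below the vehicle mean) fill most of the glycine columns in the enzyme rows, INSIG2 has the darkest blue in all 3 glycine libraries and SREBF1 is red in all 3.

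Among the sterol-sensing factors and their control, 1 of 4 tested genes rose and 1 fell. Each is 25.0% of the 4, beside 6.71% higher and 6.54% lower among all tested genes. SREBF1 encodes SREBP-1, whose forms act on fatty acid and sterol genes. Its level was 93.7, 88.7 and 101 CPM in vehicle and 119.9, 109 and 136 CPM with glycine. All glycine libraries were above the highest vehicle library, with glycine replicate 3 the highest. SREBF1 rose by 28.9%, a log2 change of 0.37 ± 0.08 (edgeR adjusted p = 0.00956). Without glycine replicate 3 the change was 0.27 (adjusted p = 0.0579). Counts per gene do not separate the SREBP-1a and SREBP-1c transcripts. SREBF2, which encodes SREBP-2, the main activator of sterol genes, was at 262, 279 and 260.1 CPM in vehicle and at 246, 225 and 249 CPM with glycine. The groups did not overlap, but its change of -0.16 ± 0.07 did not pass (edgeR adjusted p = 0.144). The opposite signs of SREBF1 and SREBF2 are a description, since the difference between their changes was not tested. SCAP changed by -0.01 ± 0.07 with overlapping groups.

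INSIG2, whose product retains SCAP in the endoplasmic reticulum, was at 82.7, 74.2 and 85.7 CPM in vehicle and at 51.5, 53.0 and 53.7 CPM with glycine. The gap between the groups was wider than the spread within either. INSIG2 fell by 34.8%, a log2 change of -0.62 ± 0.07 (edgeR adjusted p = 6.29e-05). It was also the only one of the 33 tested genes of the list called against a null of a 1.2-fold change.

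INSIG1, the other INSIG gene and a known SREBP target, was almost without reads. It had 2, 0 and 0 counts in vehicle replicates 1 to 3 and 0, 1 and 1 counts with glycine, 4 in all. No library was above 3 counts, so no fold is given. The nearest genes that averaged 1 CPM or more were PAXIP1-DT, 292073 bases before it with 11 lower genes between, and RBM33-DT, 300996 bases after it with 8 between. They had means of 14.9 and 3.06 CPM and were chosen after these values were seen. How common such distances are around other genes was not tested, nor was the cause of the low INSIG1 count.

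Of the 6 genes of uptake, transport and storage, 1 was called lower, or 16.7% beside 6.54% of all tested genes. SOAT2, the sterol acyltransferase of hepatocytes and intestinal cells that makes cholesteryl esters, was at 49.6, 51.9 and 56.1 CPM in vehicle and at 39.0, 41.4 and 38.5 CPM with glycine. The groups were apart in every library. SOAT2 fell by 24.5%, a log2 change of -0.40 ± 0.07 (edgeR adjusted p = 0.00179). SOAT1, the widely expressed acyltransferase, changed by -0.09 ± 0.06 with overlapping groups, and the difference between both acyltransferases was not tested.

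STARD4, a cytosolic sterol carrier, was at 27.8, 18.9 and 25.3 CPM in vehicle and at 17.4, 17.0 and 20.8 CPM with glycine. Vehicle replicate 2 lay below glycine replicate 3, so the groups overlapped, and the vehicle libraries varied by 19.0% (coefficient of variation). The change of -0.39 ± 0.12 did not pass (edgeR adjusted p = 0.0564). Without vehicle replicate 2 it was -0.53 (adjusted p = 0.00408), and leaving out glycine replicate 3 gave -0.49 (0.0388). Each of the 4 other fits with a library left out did not pass, down to a change of -0.28 (0.197) for vehicle replicate 1. In vehicle replicate 2 the levels of ALB, HMGCS1, MSMO1 and STARD4 were all the lowest of the vehicle group. These genes were picked after their values were seen. Others were highest in that library, such as SREBF2, NPC1 and the hepatocyte marker HNF4A. Of the 19 enzymes, vehicle replicate 2 was the lowest of its group for 8 and vehicle replicate 1 for 9.

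NPC1, which exports cholesterol from lysosomes, was at 106 to 115 CPM in vehicle and 93.2 to 102 CPM with glycine. These ranges did not overlap, but the change of -0.17 ± 0.06 did not pass (edgeR adjusted p = 0.0935). NPC1L1, the sterol uptake protein blocked by ezetimibe, changed by 0.00 ± 0.09. TMEM97, a membrane protein that binds NPC1, changed by -0.02 ± 0.07, and both genes had overlapping groups.

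None of the 4 tested genes of the oxysterol receptors and efflux passed, and all 4 had overlapping groups. The receptors NR1H3 (LXRα) and NR1H2 (LXRβ) changed by -0.03 ± 0.08 and -0.04 ± 0.07. ABCA1, which loads cholesterol onto apolipoprotein A-I and is an LXR target, was at 102, 76.0 and 65.0 CPM in vehicle and at 67.4, 64.5 and 84.0 CPM with glycine. Vehicle replicate 1 was far above the other vehicle libraries, and the change of -0.17 ± 0.14 was no larger than this spread (edgeR adjusted p = 0.469). MYLIP, an LXR-driven ubiquitin ligase, was low at 2.16 to 2.77 CPM over all libraries and changed by 0.00 ± 0.15. ABCG1, another LXR target and sterol exporter, was too low to test. It had 4, 3 and 2 counts in vehicle and 2, 8 and 7 counts with glycine, so glycine replicate 1 was as low as the lowest vehicle library.

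Levels corrected for exon length ranged widely between the genes. Per kb of exon, DHCR7 was highest at 102 CPM in vehicle and 88.7 CPM with glycine. FDFT1 followed at 77.2 and 74.2 CPM per kb, and TMEM97 at 67.2 and 66.1. The tested genes at the low end were STARD4 at 4.22 and 3.23 CPM per kb and MYLIP at 0.801 and 0.799. Among the controlling genes, SREBF2 was at 35.3 CPM per kb in vehicle and 31.7 with glycine, and SREBF1 at 11.8 and 15.2. INSIG2 went from place 18 of 35 to place 21, and SREBF1 from place 23 to place 20.

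**Figure D4:**
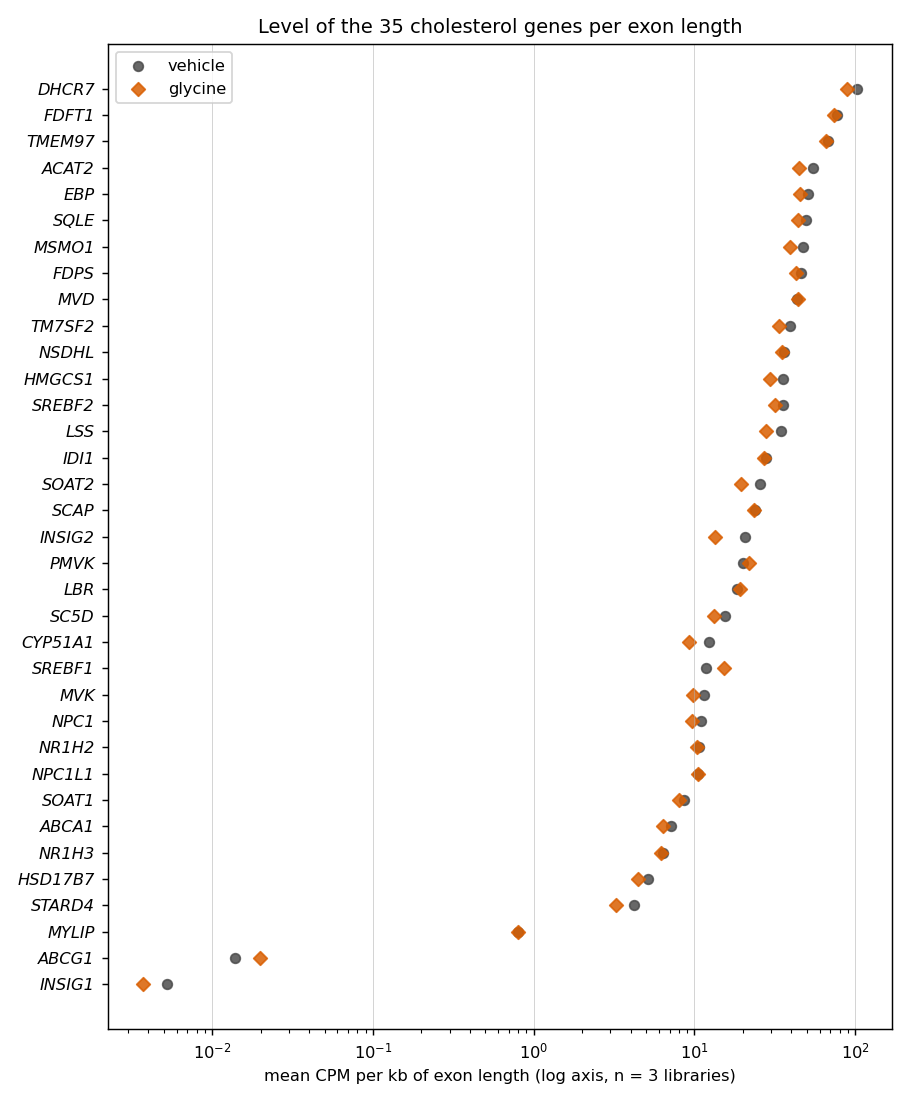
Mean CPM per kb of exon length on a log axis for all 35 genes, in vehicle (circles) and with glycine (diamonds), n = 3 libraries each, sorted by the vehicle level. DHCR7 is at the top near 102, MYLIP is the lowest tested gene at 0.80, and ABCG1 and INSIG1 lie far below on a few counts.

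Another 63 genes around the pathway were read from the same fit, and 59 of them were tested, with 1 higher and 6 lower. These are shares of 1.69% and 10.2%, beside 6.71% and 6.54% of all tested genes. Both directions together came to 11.9%, which is near the 13.3% of all tested genes. Among 12 genes of the isoprenoid branch, which turns farnesyl units into ubiquinone and prenyl groups, the median change was 0.04 and 1 was called. PDSS1, which makes the ubiquinone tail, was at 11.7 to 13.2 CPM in vehicle and 14.3 to 15.6 CPM with glycine. It rose by 0.29 ± 0.08 (edgeR adjusted p = 0.0349), and the call was lost without vehicle replicate 1 (0.110), vehicle replicate 3 (0.0958), glycine replicate 1 (0.0671), glycine replicate 2 (0.103) or glycine replicate 3 (0.128). None of 14 genes of SREBP processing and of sterol-triggered degradation was called, and their median change was -0.02. A single one was called lower in 5 of the alternatives, DESeq2 among them.

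Of 12 tested genes of sterol carriers and lysosomal release, 3 fell and 0 rose, with a median change of -0.12. The falls are 25.0% of the 12, beside 6.54% of all tested genes. LIPA, the lysosomal acid lipase that frees cholesterol from its esters, was at 123 to 137 CPM in vehicle and 97.0 to 102 CPM with glycine. It fell by 0.39 ± 0.06 (edgeR adjusted p = 0.00131). OSBPL2, of the oxysterol-binding protein family, fell by 0.21 ± 0.06 (edgeR adjusted p = 0.0294). It kept its call without vehicle replicate 3 and lost it without vehicle replicate 1 (0.0770), vehicle replicate 2 (0.0547), glycine replicate 1 (0.0847), glycine replicate 2 (0.0822) or glycine replicate 3 (0.0879).

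Of 9 LXR partners and other targets, 2 fell, or 22.2% beside 6.54% of all tested genes, and 0 rose. ABCG8, a subunit of the transporter that secretes sterols into bile, was at 24.0 to 26.8 CPM in vehicle and 17.5 to 18.7 CPM with glycine. It fell by 0.48 ± 0.07 (edgeR adjusted p = 0.000731), and its call was kept against a null of a 1.2-fold change. RXRA, the partner receptor of LXR and of many other nuclear receptors, fell by 0.28 ± 0.07 (edgeR adjusted p = 0.0148), with an adjusted p of 0.0691 without glycine replicate 3. Of 12 tested lipogenic genes known as SREBP-1 targets, 0 rose and 1 fell, with a median change of 0.01. The fall is 8.33% of the 12, beside 6.54% of all tested genes. Glycine libraries lay above all vehicle libraries in 4 of the 12 and below them in 2. Among all tested genes these patterns were held by 17.2% and 14.4%. After correction for gene length 2 of the 12 were called higher, or 1 with a replicate block as well. Among all 15492 tested genes, 1203 and 1174 were called higher in these settings, against 1040 in the main fit. The 1 that fell was LPIN1, a phosphatidate phosphatase, by 0.33 ± 0.09 (edgeR adjusted p = 0.0352). Its call was lost without vehicle replicate 1 (0.128), glycine replicate 1 (0.0682) or glycine replicate 2 (0.136).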

How the data were processed

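Each deposited file gives raw counts per gene for 1 library. Per the submitters' processing notes, the authors used Trimmomatic 0.36, STAR 2.5.2b and featureCounts of Subread 1.5.2 on GRCh38. The annotation release and strand setting were not given in the sources used here. Of the 35 genes, 33 had the same start and end in GENCODE release 29. A single count was worth 0.017 to 0.0314 CPM, and such limits cover counting error only.

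The counts were tested with the edgeR 4.0.16 quasi-likelihood test in R 4.3.3 (two-sided, group only). The edgeR expression filter was run at its defaults (count 10, total 15), scaling was TMM, and Benjamini-Hochberg adjustment covered 15492 genes at a threshold of 0.05. Standard errors were the log2 change divided by the square root of F. On simulated data with 200 genes changed by 1 on the log2 scale, the fit recovered 184 and made 15 false calls. With 0 genes changed it made 0 false calls. Smaller changes, such as those of the called cholesterol genes, were not simulated. Alternatives used limma 3.58.1 and DESeq2 1.42.0.

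The members and lists were chosen with earlier results of these data known. All 35 members could be named, and of each further list at most 5 past the threshold with the smallest p. Of the further genes called, 1 is not reported here. Promoters were searched for 4 motifs on both strands, as a description.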

Additional observations from a re-analysis of the deposited data

How the results depend on the processing

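No direction of a called gene reversed. Against a null of a 1.2-fold change, 235 genes were called higher and 246 lower, with 0 cholesterol genes higher, 1 lower (INSIG2) and 0 enzymes lower. Leaving out 1 library at a time gave 587 to 926 genes higher and 655 to 1010 lower, 0 to 1 cholesterol genes higher and 5 to 9 lower, and 3 to 7 enzymes lower. The count of genes called higher was 590 without vehicle replicate 1, 594 without glycine replicate 1, 617 without glycine replicate 2 and 587 without glycine replicate 3, and the count called lower was 655 without glycine replicate 2. Cholesterol genes called lower were 5 without glycine replicate 1 or glycine replicate 2. Enzymes called lower were 3 without any 1 glycine library. All other alternatives gave 7 to 11 cholesterol genes lower. The count was 6 with ACAT2 and CYP51A1 left out, where other genes cover 20% or more of exon length. Over 40 named genes and 17 alternatives, 601 of 680 values kept their direction and side of the threshold, 59 lost the call and 20 gained it. ACAT2, LSS, CYP51A1 and SOAT2 lost theirs against the 1.2-fold null alone. MSMO1 was not called with total count scaling (0.0647), nor SC5D without a filter (0.0562), and DESeq2 called HMGCS1 (0.0238), STARD4 (0.0197) and DHCR7 (0.0374). The cause of these shifts was not tested, and the fits with a library left out also rest on fewer libraries. The replicate numbers gave no sign of pairing, with correlations of -0.058, -0.027 and -0.0026 between same-numbered deviations. Every library correlated best with one of another number, at up to 0.214, and no pairing was made from that. The main test takes no account of day, and a replicate block does so only if equal numbers stand for the same day. With a replicate block 866 genes were higher and 918 lower, and of the cholesterol genes 1 was higher and 8 lower. TM7SF2 (0.0647) and SC5D (0.0650) were then not called, and HMGCS1 (0.0307) and STARD4 (0.0210) were. Of the further genes, PDSS1 was not called with the block (0.0536), with the length trend removed (0.0536) or with both (0.0596). OSBPL2 was not called without a filter (0.0667), with the block (0.0675), with the length trend removed (0.0636) or with both (0.0894). Genes of LXR partners called lower were 4 with the length trend removed, where 1217 of all tested genes were called lower, against 1013 in the main fit. Genes under about 10 counts a library could not be tested at this depth.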
